A study of Mus musculus with 12 samples.

Results

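The data described here are the RNA-sequencing counts of 9 tubulin genes and of Gm14150, a pseudogene that resembles the α-tubulin gene Tuba1b, in the medial prefrontal cortex (PFC) of mice. These 10 of the 41388 genes in the count table were selected by family and by measured values: Tuba1c and Gm14150 were chosen for their fold change between CON and exGF, so values of that comparison are given for the members as a description, with no test. The study asked how the gut microbiota affects gene expression in the PFC. All groups were male Swiss Webster mice culled at 10 weeks and fed the same autoclaved diet. Conventionally raised mice (CON) carried microbes throughout life, germ-free mice (GF) were kept in isolators, and exGF mice were germ-free until postnatal day 21, when they were moved beside CON mice and became colonized. There were 4 libraries per group, each made from polyA RNA of a pool of 2 to 3 animals. Libraries therefore vary as pools do, and 1 animal that differs from the rest of its pool is not visible. Counts on genes were 22757169 to 29134760 per CON library, 13280926 to 23465074 per GF library and 22702599 to 28615407 per exGF library. The exGF columns of the table are named GFR1 to GFR4, and these numbers were not matched to single exGF samples.

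Microtubules are hollow polymers of a dimer of α-tubulin and β-tubulin, and each of these proteins is made from several genes called isotypes. In neurons microtubules fill axons and dendrites, hold their shape and serve as tracks for kinesin and dynein motors. A processed pseudogene is a copy of a spliced messenger RNA that was written back into the genome at another place, usually without the promoter of its parent gene, and such copies are common for tubulins because their messages are abundant.

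Some libraries stood apart. GF4 had far lower counts of Tuba1c and Gm14150 than GF1, GF2 and GF3. Differences of these genes between CON and GF are therefore given with and without it, and for Tuba1c also those between GF and exGF. GF1 was the shallowest library, and differences between CON and GF are also given without it for Tuba1a, Tuba1c and Gm14150. CON2 and GFR4 had raised levels of striatum markers.

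The closely related members share sequence, and their counts are therefore uncertain. Exact words of 31 bases from the transcripts of each gene were looked up in the transcripts of all other annotated genes. Such words made up 78.6% of Tuba1a, 78.7% of Tuba1b, 55.3% of Tuba1c and 79.8% of Gm14150. With words of 100 bases, the length of a read, the shares were 65.8%, 65.2%, 46.0% and 54.4%. With words of 31 bases the share of Tubb2a was 56.4%, most of it with Tubb2b, while Tubb3 shared 3.21% and Tubb5 3.50%. The 31-base words of Tuba4a were found in other genes at 38.4%, most in the overlapping gene Stk16, and those of Tuba8 at 17.1%, most in the overlapping antisense gene Gm15856, and counting did not use strand. The table counts pairs aligned to 1 place and leaves out pairs aligned to several places. Entries for the latter were 13.0% to 19.2% of all entries of a library, and whether a pair entered more than once was not checked. Within the coding sequence of Tuba1c, 91.9% of 31-base words also occurred in Tuba1a, Tuba1b or Gm14150, and in its 5′ and 3′ untranslated regions none of 501 and of 71 words did.

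Levels between genes are compared as CPM per kb of exon, where CPM are counts scaled to library size with TMM factors. Exon length was used in full, while pairs aligned to several places or lying in several genes are left out. The order can therefore depend on how much sequence a gene shares. With words of 100 bases that share was 36.9% for Tubb2a, 32.4% for Tuba4a and 0.0% for Tubb3 and Tubb5. In CON the order was Tuba1a (421 ± 20.9 CPM per kb, SD, n = 4), Tubb2a (327 ± 17.6), Tubb3 (214 ± 16.8), Tubb5 (192 ± 25.4), Tuba4a (152 ± 8.01), Tuba1b (103 ± 3.89), Tubb2b (48.8 ± 8.01), Tuba1c (18.0 ± 5.22), Gm14150 (5.59 ± 1.90) and Tuba8 (3.40 ± 0.545). Neighbours in this order whose CON libraries overlapped were Tubb3 with Tubb5, Tubb5 with Tuba4a, and Gm14150 with Tuba8. In exGF the order of the 7 most abundant members was the same, and Tuba8 (4.32 ± 0.315 CPM per kb) stood above Tuba1c (0.281 ± 0.189) and Gm14150 (0.0650 ± 0.0286). The 5 α-tubulin members summed to 1564 ± 67.9 CPM in CON libraries, 1649 ± 97.6 in GF libraries and 1644 ± 159 in exGF libraries (SD, n = 4 each). Those of the 4 β-tubulin members were 1677 ± 152, 1658 ± 44.0 and 1604 ± 155 CPM. Group ranges of both sums overlapped.

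**Figure D1:**
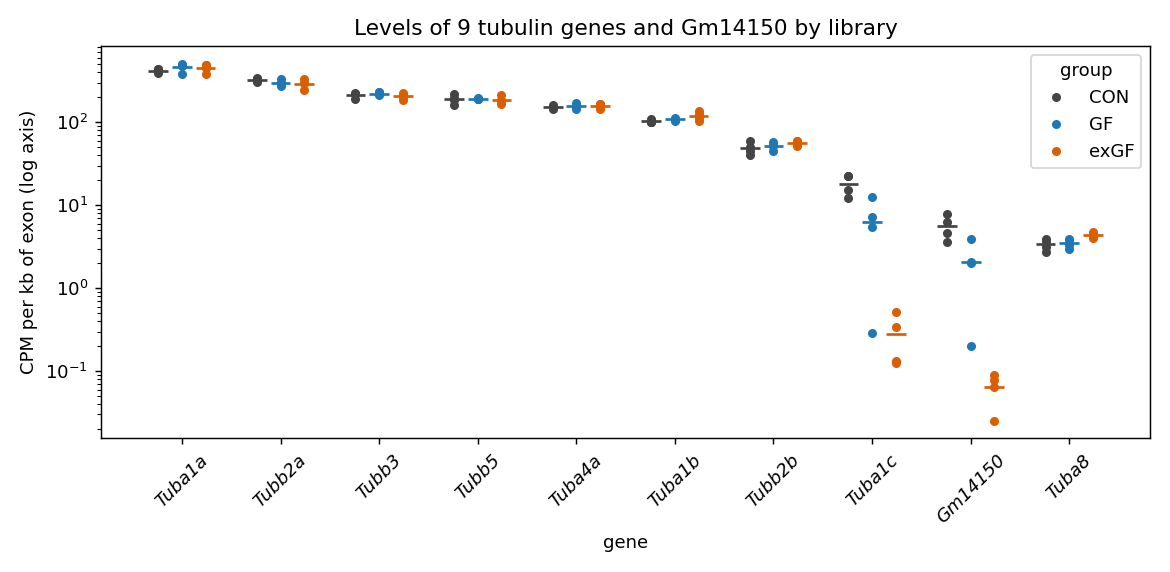
Level of each gene in CPM per kb of exon (log axis) in 4 CON, 4 GF and 4 exGF libraries; points are libraries and short lines are group means. Tuba1c and Gm14150 spread over the widest range of levels, from 18.0 and 5.59 on average in CON to 0.281 and 0.0650 in exGF.

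Tuba1c (ENSMUSG00000043091, GRCm38 chr15:99029891-99038110, plus strand) encodes an α-tubulin isotype made in many tissues. It had 50.9, 51.6, 34.9 and 27.6 CPM in CON1 to CON4, 28.6, 12.4, 16.6 and 0.654 CPM in GF1 to GF4, and 1.19, 0.306, 0.286 and 0.788 CPM in GFR1 to GFR4. The CON libraries were all high and the exGF libraries all low, with no overlap, as in 3.32% of tested genes in either direction. GF1, GF2 and GF3 lay between, GF1 above the lowest CON library, and GF4 lay inside the exGF range. As read pairs, GF4 held 12 and the exGF libraries 29, 7, 8 and 23, against at least 725 in each CON library.

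Between CON and GF the fitted log2 difference of Tuba1c was -1.52 (SE 0.525, n = 4 and 4, Benjamini-Hochberg adjusted p = 0.398, quasi-likelihood test of edgeR). The difference was -2.37 with limma-voom, the farthest of the alternatives. Over the alternatives its adjusted p ran from 0.0108 without a filter on low counts to 0.660 with DESeq2 on both groups. Without GF4 the GF mean was 19.2 ± 8.41 CPM (SD, n = 3), in place of 14.6 ± 11.5 (SD, n = 4), and the log2 difference was -1.11 (SE 0.27). Without GF1 it was -2.05 (SE 0.53). Between GF and exGF the log2 difference was -4.49 (SE 0.77), which was not called among 15569 genes tested (Benjamini-Hochberg adjusted p = 0.574, quasi-likelihood test of edgeR). The log2 difference was -3.79 with limma-voom, and over the alternatives the adjusted p ran from 9.46e-05 to 0.9995. Without GF4 the difference was -4.89 (SE 0.395), which is a description, since GF4 was singled out by its own count of this gene. Both the CON and the exGF libraries took part in the choice of the gene. Neither the CON to GF test nor the GF to exGF test is therefore independent of that choice. As a description of the contrast that chose the gene, CON held 63.3 times the Tuba1c level of exGF in summed counts per depth (4193 and 67 counts, 95% exact counting interval 49.7 to 81.9). This interval covers counting error only, and fewer cells of a type and less RNA per cell cannot be told apart in bulk tissue.

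Gm14150 (ENSMUSG00000082809, chr2:151458956-151460309, plus strand) is annotated as a processed pseudogene of 1354 bases in 1 exon, on another chromosome than the Tuba1 genes. Its counts were 206, 251, 141 and 165 in CON1 to CON4, 73, 61, 53 and 5 in GF1 to GF4, and 3, 2, 3 and 1 in GFR1 to GFR4. In CPM these were 8.44, 10.7, 4.84 and 6.28 in CON, 5.38, 2.72, 2.83 and 0.273 in GF, and 0.123, 0.0874, 0.107 and 0.0342 in exGF. The libraries fell in the same places as for Tuba1c: CON high, exGF near 0, GF1 above the lowest CON library and GF4 the lowest of its group. GF4 stood above every exGF library here, on 5 counts against 1 to 3. GF and exGF libraries did not overlap in 3.53% of tested genes, in either direction, and the exGF libraries took part in the choice of Gm14150.

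The log2 difference of Gm14150 between CON and GF was -1.46 (SE 0.455, n = 4 and 4, Benjamini-Hochberg adjusted p = 0.336, quasi-likelihood test of edgeR). It was -1.07 (SE 0.30) without GF4, -1.935 (SE 0.46) without GF1 and -1.96 with limma-voom, and the adjusted p over the alternatives ran from 0.0107 to 0.576. The CON libraries took part in the choice of the gene, so this test is not independent of that choice. Between GF and exGF Gm14150 did not pass the filter on low counts, so there is no main test. Its summed counts there were 192 and 9, a ratio per depth of 30.5 with a 95% exact counting interval of 15.7 to 67.7. This interval covers counting error only, not the spread between pools, and is no test. In 8 of the settings Gm14150 was tested, with an adjusted p from 1.935e-05 (DESeq2 on all 12 libraries) to 0.9995 (without GFR3). In the fits of all 12 libraries it passes the filter through its high counts in CON, so those values are no test of GF against exGF on their own. GF4 and the exGF libraries stand out by the counts of this gene itself, so a fit without GF4 is no separate evidence. Between CON and exGF the summed counts were 763 and 9, a ratio of 85.8 (95% exact counting interval 44.9 to 188), given as a description. Here too the interval leaves out the spread between pools.

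**Figure D2:**
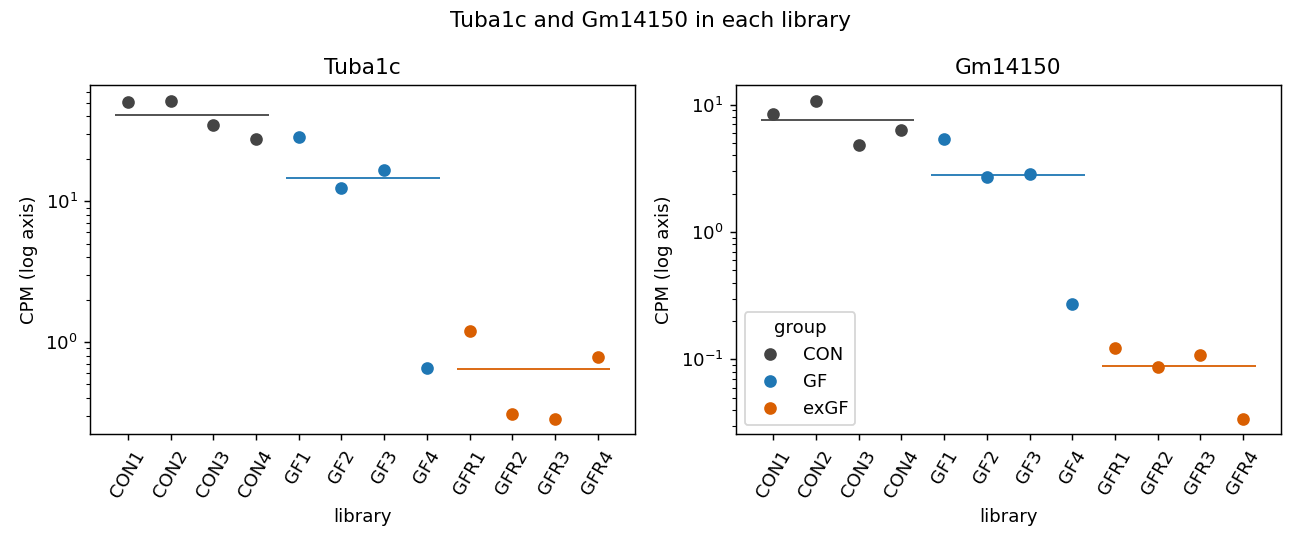
Tuba1c (left) and Gm14150 (right) in CPM on a log axis for each of 12 libraries; points are libraries and horizontal lines are group means. GF4 sits at 0.654 CPM for Tuba1c and 0.273 for Gm14150, far below GF1 to GF3.

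Within a library the counts of both genes stood in a similar proportion. Gm14150 had 0.166, 0.208, 0.139 and 0.228 counts per Tuba1c count in CON1 to CON4 and 0.188, 0.219, 0.171 and 0.417 in GF1 to GF4. The GF4 value rests on 5 and 12 counts, and the exGF values (0.0435 to 0.375) on 1 to 3 counts of Gm14150. Over 12 libraries, which fall into separate groups, log2 CPM of Tuba1c and Gm14150 had a Pearson r of 0.977 and a Spearman rho of 0.909. Without the libraries farthest from the median of Tuba1c (GFR2 and GFR3), r was 0.978 over 10, with the groups still apart. Both genes were chosen for their difference between CON and exGF, so a high correlation over these libraries follows from the choice.

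Tuba1b (ENSMUSG00000023004, chr15:98931425-98934565, minus strand), a widely expressed α-tubulin, is the gene with which both share most sequence. It had 190, 203, 188 and 188 CPM in CON1 to CON4, 195, 201, 208 and 213 CPM in GF1 to GF4, and 233, 194, 209 and 256 CPM in GFR1 to GFR4. The groups overlapped, with CON2 the highest CON library and GFR4 the highest of all, the same libraries in which striatum markers were raised. Its log2 differences were 0.10 (SE 0.07) from CON to GF, 0.11 (SE 0.09) from GF to exGF and, as a description, 0.20 (SE 0.09) from CON to exGF. Without CON2 the difference of Tuba1b from CON to GF was 0.12, and without GFR4 that from GF to exGF was 0.04.

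Because pairs can pass between these genes, the counts of Tuba1b, Tuba1c and Gm14150 were also added together. The sum was 249.6, 266, 228 and 222 CPM in CON1 to CON4, 229, 216, 227 and 214 CPM in GF1 to GF4, and 235, 195, 210 and 257 CPM in GFR1 to GFR4. All 3 groups overlapped. Tuba1c and Gm14150 made up 23.8%, 23.5%, 17.4% and 15.25% of the sum in CON, 14.8%, 6.99%, 8.56% and 0.432% in GF, and 0.187% to 0.559% in exGF. Fitted as 1 gene, the sum differed by log2 -0.11 (SE 0.08) between CON and GF, 0.00 (SE 0.09) between GF and exGF and, as a description, -0.12 (SE 0.10) between CON and exGF. The sign of the CON to GF and CON to exGF differences is thus opposite to that of Tuba1b alone, and adjusted p for the sum was 0.737 between CON and GF (Benjamini-Hochberg, quasi-likelihood test of edgeR). Tuba1b made up most of the sum in every library, so overlap of the groups in the sum says little about Tuba1c and Gm14150. Tuba1a, which also shares words with Tuba1c, and pairs aligned to several places are not in the sum. Whether pairs moved between these genes was not tested, since the table holds no alignments.

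**Figure D3:**
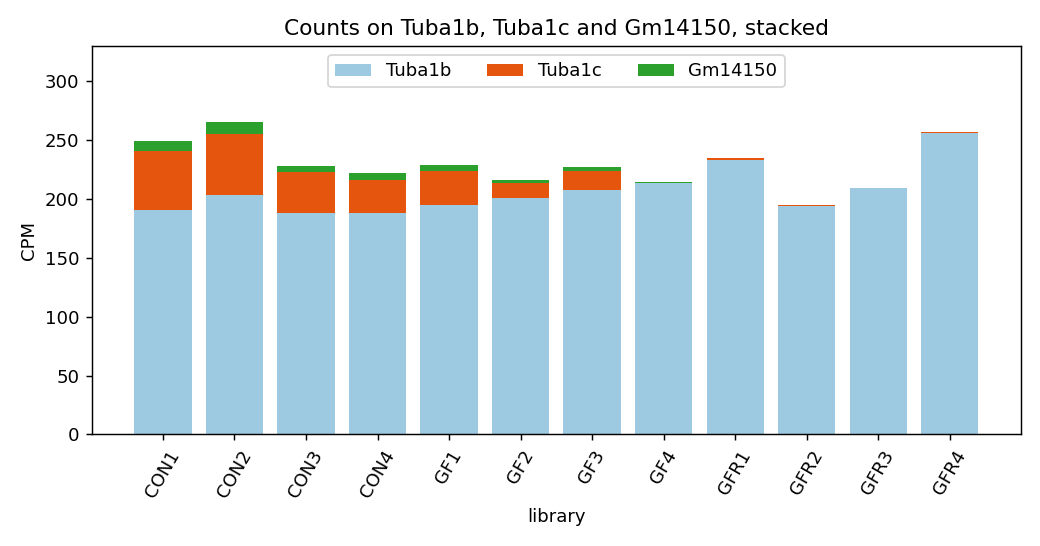
Stacked CPM of Tuba1b, Tuba1c and Gm14150 in each library. Tuba1c and Gm14150 make up 15.25% to 23.8% of the stack in CON and at most 0.559% in exGF, while the stacks of the groups overlap in height.

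How alike these genes are was measured on their GENCODE M21 transcripts. The coding sequences of Tuba1b (1356 bases) and Tuba1c (1350 bases) had the same base at 98.4% of 1350 aligned positions. Gm14150 matched Tuba1b at 98.7% of 1354 positions, Tuba1c at 97.5% of 1348 and Tuba1a at 97.6% of 1354. At the 22 positions where Tuba1b and Tuba1c differ, Gm14150 had the Tuba1b base at 20 and the Tuba1c base at 2, and at 14 further positions it differed from both.

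Tuba1a (ENSMUSG00000072235, chr15:98949837-98953703, minus strand) encodes the main α-tubulin of developing and mature neurons, and its mutations in humans disturb the layering of the cortex. It lies between Tuba1b and Tuba1c, 15271 bases from the former and 76187 from the latter. Its level was 790, 782, 756 and 707 CPM in CON1 to CON4, 694, 860, 878 and 915 CPM in GF1 to GF4, and 896, 688, 816 and 892 CPM in GFR1 to GFR4. GF1 and GFR2 were the lowest libraries and the groups overlapped. The difference from CON to GF was log2 0.15 (SE 0.09, Benjamini-Hochberg adjusted p = 0.652, quasi-likelihood test of edgeR) and 0.22 (SE 0.07) without GF1.

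Tuba4a (ENSMUSG00000026202, chr1:75214228-75219865), an α-tubulin abundant in brain and muscle, ran from 534 to 605 CPM in CON libraries, 537 to 624 in GF libraries and 539 to 617 in exGF libraries, ranges that nearly coincide. Tuba8 (ENSMUSG00000030137, chr6:121210696-121226854), an isotype that differs more from the others, had 7.13, 8.92, 8.48 and 6.24 CPM in CON1 to CON4, 8.84, 7.53, 6.63 and 8.56 CPM in GF1 to GF4, and 10.8, 9.17, 9.32 and 9.86 CPM in GFR1 to GFR4. Every exGF library lay above every CON and GF library. Its log2 difference from GF to exGF was 0.30 (SE 0.13, unadjusted p = 0.0423, Benjamini-Hochberg adjusted p = 0.739, quasi-likelihood test of edgeR), and from CON to exGF, as a description, 0.33 (SE 0.14). Of all genes tested, 3.53% had GF and exGF libraries that did not overlap, and 3.32% had such CON and exGF libraries.

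Of the β-tubulins, Tubb3 (ENSMUSG00000062380, chr8:123411424-123422015) is the isotype used to mark neurons. It had 424, 408, 415 and 354 CPM in CON1 to CON4, 429.8, 394, 429 and 406 CPM in GF1 to GF4, and 382, 348, 400.3 and 418 CPM in GFR1 to GFR4. CON4 and GFR2 were low and the groups overlapped.

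Tubb2a (ENSMUSG00000058672, chr13:34074274-34078007) and Tubb2b (ENSMUSG00000045136, chr13:34126748-34130466) are neighbours 48740 bases apart, both abundant in neurons, with 96.5% of aligned coding bases the same. Tubb2a had 532, 549, 542 and 486 CPM in CON1 to CON4, 436, 481, 474 and 539 CPM in GF1 to GF4, and 477, 399, 474 and 532 CPM in GFR1 to GFR4. In GF and exGF 3 of 4 libraries each lay below the lowest CON library, with GF4 and GFR4 inside the CON range. The difference was log2 -0.12 (SE 0.08) between CON and GF and -0.05 (SE 0.10) between GF and exGF. Tubb2b ran from 92.2 to 136 CPM in CON libraries, 102 to 134 in GF libraries and 117 to 138 in exGF libraries, and the ranges overlapped.

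Tubb5 (ENSMUSG00000001525, chr17:35833921-35838306), made in most cells and much used by neural progenitors, had 659.8, 737, 619 and 535 CPM in CON1 to CON4, 639, 631, 656 and 640.1 CPM in GF1 to GF4, and 602, 552, 610.2 and 706 CPM in GFR1 to GFR4. The GF libraries lay close together inside the wider CON range. The 4 β-tubulin members had log2 differences of -0.12 to 0.11 between CON and GF and of -0.11 to 0.09 between GF and exGF.

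Counted over all members, 0 of 10 were called between CON and GF (Benjamini-Hochberg adjusted p under 0.1, quasi-likelihood test of edgeR), where 0.251% of 15542 genes tested were. DESeq2 and limma-voom also called 0. At an unadjusted p under 0.05 stood 2 of the 10, Tuba1c and Gm14150, and 8.69% of all genes. The CON libraries took part in the choice of both, so this count is not read against that share. Without a filter on low counts both were called, as were 221 of 24405 genes in all, beside 39 of 15542 with it. Between GF and exGF 9 members were tested, 0 were called, and 0.0% of 15569 genes were. At an unadjusted p under 0.05 stood 2 of the 9, Tuba1c and Tuba8, and 6.65% of all genes. DESeq2 on both groups called 1 member there, Tuba1c, among 19 of 15569 genes, and limma-voom 0 members. Fitted to all 12 libraries, DESeq2 called 17 and edgeR 2 of 16032 genes, Tuba1c and Gm14150 among them. Gm14150 enters these fits through its counts in CON, and the exGF libraries took part in the choice of both genes. Between CON and exGF, the contrast used for the choice, 2 of 10 were past the threshold. This count is fixed by the choice of Tuba1c and Gm14150, and nothing is read from it. Among all 15813 genes tested there, 0.0696% were called and 5.33% had an unadjusted p under 0.05. These comparisons share groups. The median log2 difference over all genes was 0.007 between CON and GF, -0.005 between GF and exGF and -0.007 between CON and exGF.

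**Figure D4:**
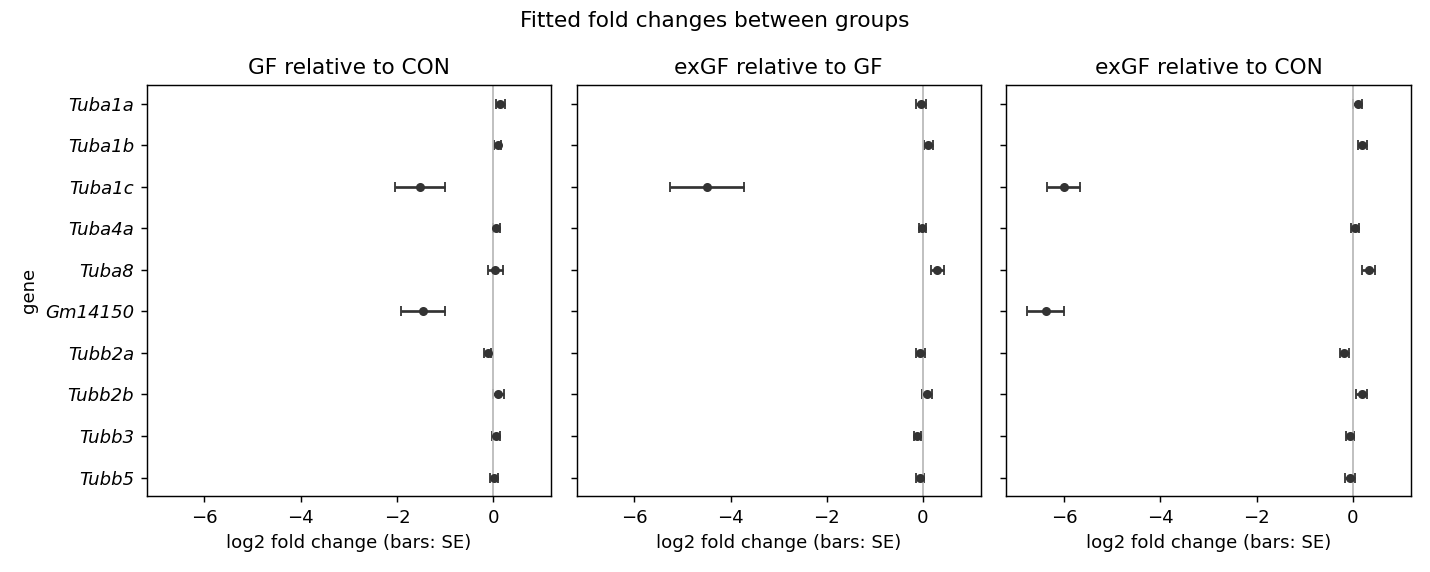
Fitted log2 fold change of each member with its SE for 4 libraries per group; Gm14150 has no point for exGF relative to GF because it did not pass the filter on low counts, and its point for exGF relative to CON rests on 1 to 3 counts per exGF library. Apart from Tuba1c and Gm14150, points lie between -0.18 and 0.33.

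Other tubulin genes give the family's background. Of 11, 3 had no count in any library (Tuba3a and Tuba3b, known from testis, and Tubal3), and Tubb1, the β-tubulin of platelets, had at most 2. The other 7 were tested and 0 were called in any comparison by the main quasi-likelihood test of edgeR. Tubb6, a β-tubulin made at low level in many cell types, had 5.28, 6.53, 4.12 and 4.38 CPM in CON1 to CON4, 1.55, 1.92, 2.73 and 3.05 CPM in GF1 to GF4, and 3.65, 3.14, 4.11 and 4.18 CPM in GFR1 to GFR4. All GF libraries lay below all CON and all exGF libraries, as in 5.0% and 3.53% of genes for a pair of groups in either direction. Its log2 difference between CON and GF was -1.11 (SE 0.23, Benjamini-Hochberg adjusted p = 0.112, quasi-likelihood test of edgeR). Over the alternatives its adjusted p ran from 0.000758 with DESeq2 on all 12 libraries to 0.213 without CON2. Tubb6 was called there in 6 of 19 settings, among them the quasi-likelihood test of edgeR without GF4 (log2 -1.27, adjusted p = 0.0944). Tubb4a, the β-tubulin enriched in brain and in oligodendrocytes, had 837 ± 63.8 CPM in CON libraries, 977 ± 113 in GF libraries and 921 ± 77.5 in exGF libraries (SD, n = 4 each), a CON to GF log2 difference of 0.23 (SE 0.09, unadjusted p = 0.0207, Benjamini-Hochberg adjusted p = 0.451, quasi-likelihood test of edgeR). For Tubb4b, for the γ-tubulins Tubg1 and Tubg2 that start microtubules, and for Tubd1 and Tube1 of the centriole, log2 differences were -0.105 to 0.30.

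Counts of further pseudogenes that share sequence with a member were low. Of 7 in the table that share at least 1% of a member's 31-base words, besides Gm14150, 6 had a count. Gm3756, which holds 57.2% of the words of Gm14150, had 9, 6, 4 and 8 counts in CON1 to CON4, 1, 5, 1 and 0 in GF1 to GF4, and 0 in all 4 exGF libraries. All exGF libraries lay below all CON libraries, as in 3.32% of tested genes in either direction. GF2 lay inside the CON range, and the counts are too few for the filter on low counts. Gm6682 had 9, 4, 4 and 4 counts in CON and 0 to 3 in each GF and exGF library. In CPM all GF and all exGF libraries lay below all CON libraries, as in 5.0% and 3.32% of tested genes in either direction. Gm5620 had 15 to 45 counts per library, with groups that overlapped, and a log2 difference of 0.16 (SE 0.30) from CON to GF and -0.43 (SE 0.30) from GF to exGF. Gm17383 had at most 4 counts, and Gm15599 and Gm12201, which shares words with Tuba4a, at most 1.

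Around the Tuba1 genes, 10 protein-coding genes lie within 100 kb, 6 were tested and 0 were called in any comparison by the quasi-likelihood test of edgeR. Around Gm14150 there are 3, of which 2 were tested and 0 called. With so few genes, and with calls in 0.251%, 0.0696% and 0.0% of all genes, these counts of 0 say little about the neighbours, and GF4 was not set against the other libraries. At an unadjusted p under 0.05 stood 1 neighbour of the Tuba1 genes between CON and GF, and 0 elsewhere. The shares of all genes at that p were 8.69%, 5.33% and 6.65% between CON and GF, CON and exGF, and GF and exGF. After Gm14150, the genes most like Tuba1c in log2 CPM over 12 libraries were Asgr1 (r = 0.877, rho = 0.930, r = 0.795 without GFR2 and GFR3), Hexa (r = 0.868, rho = 0.951, r = 0.794), Ly86 (r = 0.842, rho = 0.839, r = 0.892) and Pkp2 (r = 0.840, rho = 0.762, r = 0.890). The libraries of a group share their treatment, and none of these 4 genes varied as widely as Tuba1c: Hexa ran from 56.5 to 76.0 CPM and Asgr1 from 0.830 to 2.73 CPM.

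Genes that fold, modify, bind or use tubulin were listed as well, and 0 of those tested in each list were called in any of the 3 comparisons by the quasi-likelihood test of edgeR. Of the 22 folding genes, median log2 was -0.02 between CON and GF, -0.10 between CON and exGF and -0.10 between GF and exGF, beside 0.007, -0.007 and -0.005 over all genes. At an unadjusted p under 0.05 stood 1 of the 22 in each comparison, beside 8.69%, 5.33% and 6.65% of all genes in the same order. Tbce, a chaperone that assembles the tubulin dimer, had 39.7 ± 5.89 CPM in CON libraries, 31.3 ± 1.61 in GF libraries and 40.1 ± 1.96 in exGF libraries (SD, n = 4 each). Pfdn6, a subunit of prefoldin, had 43.2 ± 5.65 CPM in CON and 36.4 ± 4.58 in GF.

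For tubulin modification 25 of 27 genes were tested, with a median log2 of 0.05 between CON and GF. The smallest unadjusted p there belonged to Sirt2, a deacetylase of α-tubulin abundant in oligodendrocytes (log2 0.23, SE 0.10), and to Ttll7, which adds glutamates to β-tubulin (log2 0.23, SE 0.11). Among 38 of 39 genes of microtubule binding and stability the median between CON and GF was 0.07. Genes at an unadjusted p under 0.05 were 0 between CON and GF, 0 between CON and exGF and 2 between GF and exGF. The 2 were lower in exGF, and the shares of all genes were 8.69%, 5.33% and 6.65%, in the same order. Map4 (log2 0.14, SE 0.07) and Kif2a (log2 0.21, SE 0.10) had the smallest p between CON and GF. The 29 motor genes had a median of 0.03. Dctn3, a subunit of dynactin, had 110 ± 30.3 CPM in CON libraries, 73.5 ± 5.25 in GF libraries and 73.6 ± 6.78 in exGF libraries (SD, n = 4 each), and Dync1h1, the dynein heavy chain, a CON to GF log2 of -0.19 (SE 0.10). The 18 nucleation genes had a median of 0.01, with the smallest p for the augmin subunits Haus3 (log2 0.48, SE 0.18) and Haus1 (log2 0.28, SE 0.16).

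Markers of cell types were read beside the tubulins, since isotypes differ between cell types. All 5 markers of cortical excitatory neurons had counts, summing to 5582 to 6300 CPM in CON libraries, 5719 to 6454 in GF libraries and 5600 to 6669 in exGF libraries, led by Camk2a. Inhibitory neuron markers, led by Gad1, summed to 811 ± 68.1, 883 ± 60.7 and 812 ± 58.4 CPM in CON, GF and exGF. Neither neuron list had a called gene. Of the 5 inhibitory markers 1 had an unadjusted p under 0.05 between CON and GF, higher in GF. There were 0 between CON and exGF and 1 between GF and exGF, lower in exGF. Excitatory markers had 0 in each comparison, and the shares of all genes were 8.69%, 5.33% and 6.65%. Genes listed for immature or dividing cells, led by Dlx1, summed to 63.8 ± 11.2, 58.7 ± 8.48 and 53.6 ± 3.67 CPM in CON, GF and exGF. Of these 5 genes, 0 were called or at an unadjusted p under 0.05. Dlx1 alone had 40.4 ± 5.52 CPM in CON, and Top2a, of the same list, 1.70 ± 0.900. The sum is thus mostly Dlx1 and does not give the amount of dividing cells. Median log2 of the list was -0.12 from CON to GF, -0.27 from CON to exGF and -0.31 from GF to exGF. The part of immature or dividing cells in the Tuba1c values was not tested.

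Of the oligodendrocyte markers, led by Mbp, 5 of 6 were called higher in GF than in CON, beside 0.251% of all genes called. Markers with an unadjusted p under 0.05 were 6 of 6 between CON and GF, 0 between CON and exGF and 5 between GF and exGF, the latter lower in exGF, beside 8.69%, 5.33% and 6.65% of all genes. The sum was 2346, 2365, 1926 and 2011 CPM in CON1 to CON4, 3633, 3027, 5085 and 3786 CPM in GF1 to GF4, and 2789, 2108, 1921 and 3226 CPM in GFR1 to GFR4. GF3 had the highest sum and the highest Tubb4a (1134 CPM), but GF4, with the next highest sum, had less Tubb4a (901 CPM) than CON1 (913 CPM). The part of oligodendrocytes in the Tubb4a values was not tested. Meninges markers, led by Col1a2, had 2 of 6 called lower in GF (Col1a2 and Slc6a13). Those with an unadjusted p under 0.05 were 5 of 6 between CON and GF and 5 between CON and exGF, all lower than in CON, and 2 between GF and exGF, both higher in exGF, beside the same shares of all genes. The list had sums of 134, 118, 101 and 102 CPM in CON1 to CON4, 71.0, 73.6, 71.4 and 84.2 CPM in GF1 to GF4, and 74.3, 82.9, 93.7 and 84.4 CPM in GFR1 to GFR4. Tubb6 was low in the same 4 GF libraries but higher in every exGF library, where the meninges sums overlapped those of GF, and the part of meninges in its values was not tested.

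In the other lists 0 genes were called in any comparison by the quasi-likelihood test of edgeR. At an unadjusted p under 0.05 stood 2 of 5 microglia markers between CON and GF, 4 between CON and exGF and 0 between GF and exGF, all lower than in CON, beside 8.69%, 5.33% and 6.65% of all genes. Every CON library had a higher microglia sum (248 to 293 CPM) than every GF (215 to 243) and exGF library (219 to 234). Single genes with such non-overlap, in either direction, were 5.0% of those tested between CON and GF and 3.32% between CON and exGF. Meninges sums were also higher in every CON library than in every GF and exGF library. The part of microglia or meninges in the Tuba1c and Gm14150 values was not tested. The astrocyte list had 0, 2 and 0 genes at such a p, in the same order, endothelium 1, 0 and 1, striatum 0, 0 and 1, choroid plexus 1, 1 and 0, ependyma 0, 0 and 0, and red blood cells 1, 1 and 2. Sums in CON, GF and exGF were 4637 ± 185, 4660 ± 216 and 4474 ± 236 CPM for astrocytes (led by Slc1a2), 263 ± 20.5, 229 ± 12.5 and 226 ± 7.10 CPM for microglia (Csf1r) and 183 ± 12.3, 173 ± 7.65 and 196 ± 13.3 CPM for endothelium (Flt1). Striatum markers, led by Ppp1r1b, reached 368 CPM in CON2 and 359 in GFR4 and lay between 169 and 234 in the other libraries. Choroid plexus markers (Kl) summed to 12.9 CPM in GF1 and at most 6.14 elsewhere. Kl itself had 3.17 CPM in GF1 and 3.48 to 4.29 in CON libraries. Ttr, of the same list, had 2.66 ± 4.37 CPM in GF and 1.13 ± 0.579 in CON. Ependyma markers (Foxj1) summed to at most 5.85 CPM, and red blood cell markers (Hbb-bs) to 75.3 to 195 CPM. No marker gene was at 0 in every library.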

How the data were processed

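The authors trimmed paired reads of 100 bases with Trimmomatic 0.32, aligned them to GRCm38.p3 with STAR and counted pairs on Ensembl 78 genes with HTSeq 0.6.0, without strand. The deposited values are raw counts. Pairs given to no gene (4.57% to 7.31% of all entries outside genes, 1.10% to 1.32% in several genes) were left out. Members and lists were chosen with earlier results of these data known. Symbols were found for 40254 IDs. The work used R 4.3.3, edgeR 4.0.16 (filterByExpr, TMM, quasi-likelihood test on the whole table, Benjamini-Hochberg adjustment, threshold 0.1), DESeq2 1.42.0, limma 3.58.1 and Biopython 1.88, and was tested on simulated data. P-values measure the spread between pools. Named genes were the members, the other tubulins, pseudogenes sharing member sequence, called genes of each list or else the 2 with the smallest p between CON and GF (for marker lists, as a change from the plan, mainly the most abundant gene), called neighbours, and the 5 genes most correlated with Tuba1c. Alternatives were RLE and upper-quartile scaling, no filter, at least 10 counts per library, DESeq2, limma-voom, an edgeR fit of all 12 libraries, leaving out each library, a threshold of 0.05, a replicate block, summed counts of Tuba1b, Tuba1c and Gm14150 and longer words.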

Additional observations from a re-analysis of the deposited data

Results flagged for a closer look

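In a group of 4 libraries, a library was picked out when its gap to the nearest other, as a share of the group's range, passed the critical value of Dixon's test for 4 values. Of 54 groups of 4 examined over 18 genes and sums, 2 had such a library, and chance gives about 1 in 20. Tuba1b in CON2 was 203.4 CPM, while the other CON libraries lay between 188.2 and 190.3. CON2 and GFR4, the highest Tuba1b libraries of their groups, also had the highest striatum marker sums (368 and 359 CPM, others 169 to 234), and the part of striatum in the Tuba1b values was not tested. Tubg2 in GF1, the shallowest library, was 78.97 CPM, while the other GF libraries lay between 66.1 and 68.0. GF4 was not picked out in this way for Tuba1c or Gm14150.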

How the results depend on the processing

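Between CON and GF 0 members were called by the quasi-likelihood test of edgeR, 2 without a filter on low counts, and 0 to 0 with each library left out. Between GF and exGF the count was 0, and 2 without a filter, 1 with DESeq2 on both groups, 2 with DESeq2 on all 12 libraries, 2 with the edgeR fit of all 12 libraries, and 0 to 2 with each library left out, the 2 only without GF4, which was singled out by its own counts of these genes. Between CON and exGF, where Tuba1c and Gm14150 were chosen for their fold change, counts are a description fixed by that choice: 2 members past the threshold, 2 to 2 when each library was left out, and 0 when at least 10 counts were required in every library, since both then leave the table. A threshold of 0.05 gave 0, 0 and 2. Over all genes 39, 11 and 0 were called between CON and GF, CON and exGF, and GF and exGF. DESeq2 on both groups called 205, 60 and 19, and no filter 221, 48 and 32.

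Single-gene fold changes had the other sign under 15 of 546 alternatives, all for values not called, among them Tuba1b when summed with Tuba1c and Gm14150, and without GF1 Tuba8 between CON and GF and Tuba4a between GF and exGF. Same-numbered CON and GF libraries share only a number: their deviations correlated at -0.07 to 0.03, and 0 libraries correlated best with their own number. With the replicate block 0 members and 51 genes were called. Gm14150 at 1 to 3 counts in exGF and Tuba1c at 7 to 29 are limited by depth.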
